A study of Homo sapiens with 12 samples.

Results

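The 10 genes described here encode antigens that mark epithelial ovarian cancer at the cell surface or in the blood. MUC16, MUC1, MSLN, FOLR1, EPCAM, CD24, CLDN3 and CLDN4 encode surface proteins, and WFDC2 and SLPI encode secreted ones. They are defined by name, with no measured value in the definition, although results of these data were known when they were chosen. Rows with these exact names were found for 10 of the 10, among 23621 gene rows and 14251 active genes, meaning genes that exceeded 1 FPKM in 1 or more of the 12 libraries. FPKM counts the fragments assigned to a gene per kilobase of its length and relative to all fragments of the library, and here it had been rescaled to spike-in RNAs added to RNA from equal numbers of cells, so that a fall in a gene's FPKM is a fall per cell. The libraries come from KURAMOCHI (Ku), grown in RPMI, and COV362 (Cov), grown in DMEM, both with fetal bovine serum, penicillin and streptomycin. Both are human ovarian cancer cell lines, labelled as untransduced controls, and line and medium cannot be told apart. Each line has 2 biological duplicates in each of 3 groups: DMSO, the vehicle, and THZ1 at 50 nM or at 250 nM, all after 6 hr. THZ1 is a covalent inhibitor of CDK7, CDK12 and CDK13, kinases that act on RNA polymerase II during transcription, and the comparisons here give the level of these antigen transcripts per cell under each dose.

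Ovarian carcinomas of the epithelial kind carry these proteins at high levels, which is why they serve as blood markers and as targets for antibodies, antibody-drug conjugates and engineered T cells. MUC16 and MUC1 are mucins, long proteins covered in O-linked sugar chains, and pieces of MUC16 shed from the cell are the CA125 antigen of the clinic. MSLN, or mesothelin, is anchored to the membrane by a lipid and binds MUC16, and FOLR1, the folate receptor alpha, is anchored in the same manner and carries folate into the cell. EPCAM is an epithelial adhesion molecule, CD24 is a small sugar-rich surface protein that signals to immune cells through Siglec-10, and the claudins CLDN3 and CLDN4 are tight junction proteins with several membrane passages. WFDC2 encodes HE4, a blood marker read beside CA125, and SLPI encodes an inhibitor of secreted proteases. Both hold the small cysteine-rich fold called the WAP domain, and both lie in a cluster of such genes on chromosome 20. An mRNA level need not match the amount of its protein, since surface and secreted proteins can be long-lived.

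Positions are from the GENCODE annotation on GRCh37, the assembly also called hg19. On chromosome 7, CLDN3 (chr7:73183327-73184600, minus strand) and CLDN4 (chr7:73213872-73247020, plus strand) are neighbours with 29271 bases between their annotated spans. The span of CLDN4 is 33149 bases, while its canonical transcript is a single exon of 1695 bases. SLPI (chr20:43880880-43883205, minus strand) and WFDC2 (chr20:44098393-44110172, plus strand) are separated by 215187 bases. MUC16 is at chr19:8959520-9121066 and MUC1 at chr1:155158300-155162707, both on the minus strand. MSLN (chr16:810734-818865), FOLR1 (chr11:71900602-71907367) and EPCAM (chr2:47572297-47614740) are on the plus strand. That annotation holds no gene entry for CD24, only 4 processed copies of it, so reads of CD24 may have been split between near-identical copies, and its level is uncertain. The annotated MUC1 gene shares 1449 bases with another protein-coding gene on the same strand, and all 6766 bases of FOLR1 lie within a long noncoding RNA gene on the other strand. The strand setting of the counting is not given in the sources used here.

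The 150 bases just upstream of the start site are shown for 4 genes, chosen because they stand at the ends and in the middle of the response in Ku at 250 nM, where CLDN3 and CLDN4 lost most, WFDC2 least, and MUC1 lay between them. The sequences are RefSeq promoters on GRCh38.p14, written 5′ to 3′ on the strand of the gene,
at chr7:73770271-73770420 (minus strand) for CLDN3, chr7:73830846-73830995 (plus strand) for CLDN4, chr1:155192916-155193065 (minus strand) for the first listed start of MUC1, and chr20:45469603-45469752 (plus strand) for WFDC2. Capitals mark matches, on either strand, to TATAA (the letters of the TATA box), to GGGCGG (those of the GC box) and to CCAAT. The 3 joined GGGCGG matches of MUC1 overlap.
CLDN3: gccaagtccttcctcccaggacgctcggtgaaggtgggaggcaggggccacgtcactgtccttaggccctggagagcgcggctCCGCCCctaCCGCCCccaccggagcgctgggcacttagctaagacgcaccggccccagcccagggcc
CLDN4: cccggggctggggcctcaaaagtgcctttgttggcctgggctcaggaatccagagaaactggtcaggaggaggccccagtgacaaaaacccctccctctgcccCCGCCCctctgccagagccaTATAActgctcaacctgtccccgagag
MUC1: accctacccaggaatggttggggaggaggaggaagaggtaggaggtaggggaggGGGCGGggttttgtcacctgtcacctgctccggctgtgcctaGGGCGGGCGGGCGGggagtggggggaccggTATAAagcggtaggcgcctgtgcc
WFDC2: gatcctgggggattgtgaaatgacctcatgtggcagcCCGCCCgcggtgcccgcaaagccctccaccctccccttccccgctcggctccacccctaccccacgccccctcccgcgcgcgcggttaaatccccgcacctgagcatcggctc

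RefSeq promoters were matched for 6 of the 10 genes, with MUC16 and CD24 beside the 4 shown. At the first listed start of each, TATAA was present in 2 of the 6 (CLDN4 and MUC1), where 12.1% of 35116 RefSeq promoter windows of the same length hold it. GGGCGG was present in 6 of 6, where 36.8% hold it, and CCAAT in 1 of 6 (MUC16), where 23.5% hold it. MUC1, MUC16 and CD24 have further starts. The second start of MUC1, whose window overlaps the first, held TATAA and GGGCGG, the second starts of MUC16 and CD24 held none of the 3 motifs, and the third of CD24 held GGGCGG and CCAAT. A match to these letters is a description and does not show that a factor binds there. MSLN, FOLR1, EPCAM and SLPI were not matched.

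The files hold no read counts, so sequencing depth is unknown here and counting intervals cannot be given. Genes without signal share a low value in each library, here called the floor, between 0.0783 and 0.119 FPKM in Ku and between 0.0890 and 0.110 FPKM in Cov. In Ku the floor fell with dose. It was 0.118 and 0.119 FPKM in DMSO, 0.107 and 0.103 at 50 nM and 0.0783 and 0.0822 at 250 nM. A gene without signal in Ku therefore also lies lower at each dose. The median spike-in RNA differed from its DMSO mean by at most 0.0451 on the log2 scale. Of 7 ovarian epithelial markers, 6 had over 1 FPKM in each line, with CDH1 absent in Ku and WT1 absent in Cov at that level. Of markers of other cells, 1 of 4 leukocyte genes exceeded 1 FPKM in Ku DMSO libraries (CD14) and 0 in Cov, 1 and 2 of 5 fibroblast genes did so (COL1A1 in both lines and COL1A2 in Cov), 2 and 1 of 3 endothelial genes, and 3 and 2 of 4 mesothelial genes. PTPRC and CD3E stayed under 1 FPKM in all libraries.

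On the spike-in scale both 250 nM libraries lay below both DMSO libraries for 10 of the 10 antigen genes in each line. That was so for 95.9% of active genes in Ku and 95.6% in Cov. In Ku the 10 include MUC16, which lay near a floor that itself fell with dose. Of the 10, 4 in Ku and 9 in Cov passed as lower, with the claudins and CD24 falling most and MSLN and the secreted genes least. On scales that ignore the spike-ins none was called lower at 250 nM, as described further on. The fits used limma on log2(FPKM + 1) with 2 libraries a group, and a call needed both an adjusted p below 0.001 and a change of more than 0.5 in log2 units. In Ku at 50 nM, 0 of the 10 genes were called lower and 0 higher, against 11.3% of active genes lower and 0.0842% higher; 5 were lower at an unadjusted p under 0.05 and 0 were higher. In Ku at 250 nM, CLDN3, CLDN4, CD24 and MUC1 were called lower, which is 4 of the 10 against 68.6% of active genes, and 0 were called higher against 0.0491%. In Cov at 50 nM, 8 of the 10 were called lower against 70.5% of active genes, and 0 higher against 0.0772%. In Cov at 250 nM, 9 of the 10 were called lower against 84%, and 0 higher against 0.105%. No antigen gene was higher at an unadjusted p under 0.05 in these 4 comparisons, nor in the 2 between doses. Both doses of a line share its DMSO libraries, and differences between lines were not tested, because their tables were normalized separately.

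The Cov count at 50 nM depends on single libraries: without DMSO replicate 2 it was 1, and without DMSO replicate 1 it was 5. MUC1 was the gene whose call at 50 nM held with each of the 6 Cov libraries left out in turn. Beside the median over all active genes on the spike-in scale, the antigen genes lay on both sides. Their median log2 fold change at 250 nM was -0.61 in Ku, where that of all active genes was -1.11, and -0.92 in Cov, where that of all active genes was -1.31. At 50 nM these medians were -0.26 and -0.40 in Ku and -0.75 and -0.85 in Cov. At 50 nM, 5 of the 10 in Ku and 8 in Cov lay above the median of active genes, and at 250 nM 7 did so in each line, while CLDN3, CLDN4 and CD24 lay below it. These are descriptions with no test. MUC16 is one of these 7 in Ku, where it was near the floor and its fitted change means little.

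**Figure D1:**
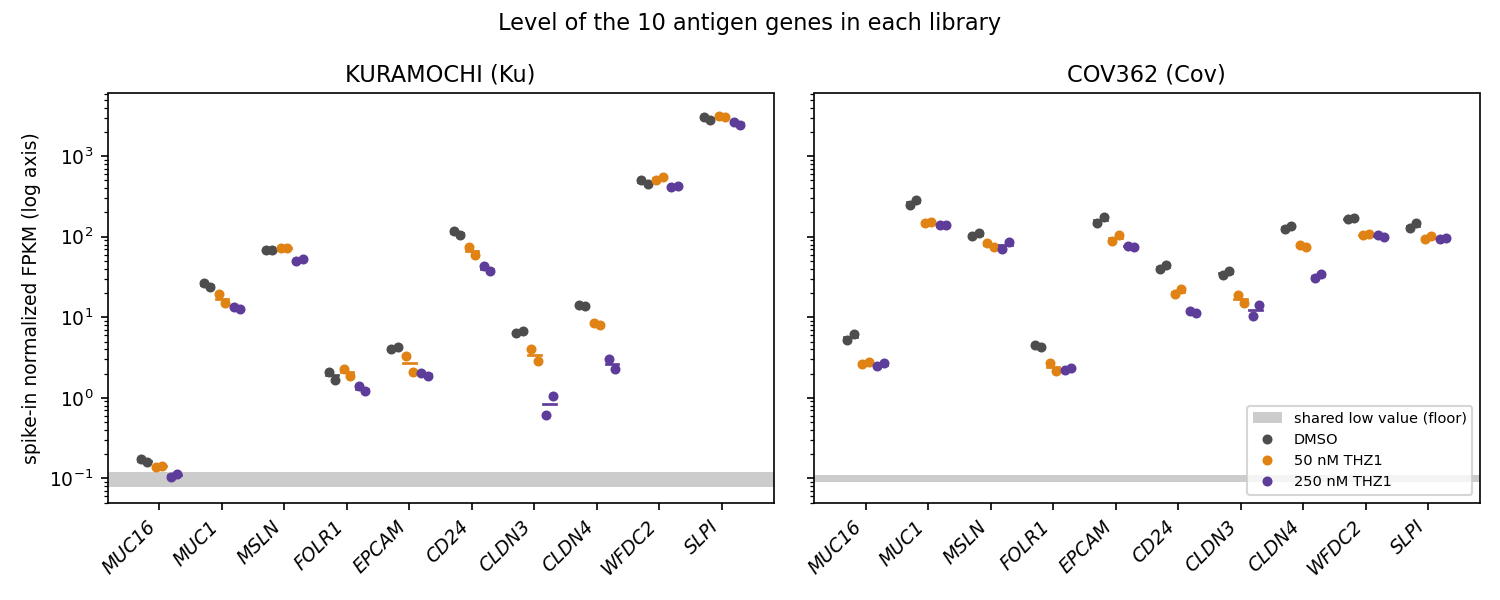
FPKM on a log axis of each antigen gene in each of the 12 libraries, Ku on the left and Cov on the right, with points for the 2 libraries of a group, a bar for their mean and a grey band for the floor. SLPI in Ku lay between 2466 and 3183 FPKM and MUC16 in Ku between 0.105 and 0.172 FPKM, just above or within the floor band, while in Cov 8 of the 10 genes lay above 10 FPKM in every library.

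The claudins, with CD24, lost the largest shares of their transcripts. CLDN4, which sets the ion permeability of tight junctions, measured 14.4 and 13.7 FPKM in DMSO, 8.52 and 7.97 at 50 nM and 3.04 and 2.28 at 250 nM in Ku. The 3 groups did not overlap, and each dose lay below the one before. In Cov it measured 126 and 136 FPKM in DMSO, 79.1 and 75.5 at 50 nM and 30.3 and 34.5 at 250 nM, again with no overlap between groups. The share of the DMSO level left at 250 nM was 18.9% (range over the 4 pairs of libraries, 15.9% to 22.1%) in Ku and 24.8% (range over the 4 pairs of libraries, 22.3% to 27.4%) in Cov. The log2 fold changes were -2.05 ± 0.14 (SE; adjusted p = 3.27e-05) in Ku and -1.98 ± 0.09 (SE; adjusted p = 1.36e-06) in Cov. CLDN4 was also the gene with a call between the doses in both lines, by -1.34 ± 0.14 (SE; adjusted p = 0.000364) in Ku, where 36% of active genes were called lower and 0.0421% higher, and by -1.23 ± 0.09 (SE; adjusted p = 8.18e-05) in Cov, where 24.4% were called lower and 0.0842% higher. The calls against DMSO at 250 nM held with each library left out in turn, in both lines. The Ku call between doses was lost when any 1 of the 4 THZ1 libraries was left out, with adjusted p up to 0.00365, and the count of antigen genes called lower was then 0 in place of 1. The call of CLDN4 at 50 nM in Cov, at -0.75 ± 0.09 (SE; adjusted p = 0.000208), was lost without DMSO replicate 2 (adjusted p = 0.00208).

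CLDN3, a barrier-forming claudin encoded next to CLDN4, measured 6.35 and 6.80 FPKM in DMSO, 4.01 and 2.86 at 50 nM and 0.614 and 1.05 at 250 nM in Ku. Both 250 nM libraries were far below the other 4, and in proportion they differed from each other more than the DMSO libraries did. In Cov it measured 33.1 and 37.5 FPKM in DMSO, 18.8 and 15.2 at 50 nM and 10.4 and 14.0 at 250 nM, with each dose below the one before. At 250 nM 12.6% of the DMSO mean was left in Ku and 34.6% in Cov. The log2 fold change was -2.06 ± 0.19 (SE; adjusted p = 9.12e-05) in Ku and -1.47 ± 0.16 (SE; adjusted p = 6.82e-05) in Cov. With 1 added to each FPKM, the fitted fold understates the loss of a gene this low, which is why it reads as about the same as that of CLDN4 in Ku. Both calls held with each library left out in turn. At 50 nM the gene fell by 1.01 on the log2 scale in Cov, a call that was lost without DMSO replicate 1, DMSO replicate 2 or 50 nM replicate 2 (adjusted p up to 0.00645), and in Ku its log2 difference of -0.78 ± 0.19 (SE; adjusted p = 0.0143) was not called.

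CD24 and EPCAM, a pair of markers of epithelial and progenitor-like cells, took different levels in the lines, whose tables were each normalized on their own. CD24 measured 119 and 106 FPKM in DMSO, 74.3 and 59.9 at 50 nM and 42.9 and 37.6 at 250 nM in Ku. In Cov it measured 39.6 and 44.4 FPKM in DMSO, 19.2 and 22.1 at 50 nM and 12.1 and 11.1 at 250 nM. In both lines the groups were separate and ordered by dose. The log2 fold change at 250 nM was -1.46 ± 0.13 (SE; adjusted p = 7.63e-05) in Ku and -1.76 ± 0.11 (SE; adjusted p = 3.56e-06) in Cov, so that 35.7% and 27.7% of the DMSO level were left. In Cov CD24 was called lower also between 50 nM and 250 nM, by -0.78 ± 0.11 (SE; adjusted p = 0.000869), while in Ku the same comparison gave -0.72 ± 0.13 (SE; adjusted p = 0.00284) and was not called. That Cov call was lost without any 1 of 5 of the 6 libraries of the line, the exception being 50 nM replicate 1, with adjusted p up to 0.00542. The calls at 250 nM against DMSO held in both lines. At 50 nM CD24 fell by 0.99 on the log2 scale in Cov, a call lost without DMSO replicate 2 (adjusted p = 0.00146), and differed by -0.74 ± 0.13 (SE; adjusted p = 0.00432) in Ku, which was not called.

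EPCAM was abundant in Cov, at 149.9 and 174 FPKM in DMSO, 87.4 and 104 at 50 nM and 76.0 and 75.4 at 250 nM. The DMSO libraries lay above all treated ones, and both 250 nM libraries below both 50 nM ones. It fell by 1.08 on the log2 scale at 250 nM (adjusted p = 5.53e-05), and by 0.75 at 50 nM, where the call was lost without either DMSO library or 50 nM replicate 1 (adjusted p up to 0.00391). In Ku it was low, at 4.01 and 4.24 FPKM in DMSO, 3.33 and 2.10 at 50 nM and 2.05 and 1.84 at 250 nM. The Ku groups were separate there too, but the 50 nM libraries were far apart from each other, and the log2 fold change at 250 nM, -0.80 ± 0.18 (SE; adjusted p = 0.00595), was not called. The share left at 250 nM was 47.2% in Ku and 46.7% in Cov.

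Of the mucins, MUC1 was measured well above the floor in both lines. It measured 26.5 and 24.1 FPKM in DMSO, 19.2 and 14.8 at 50 nM and 13.5 and 12.8 at 250 nM in Ku. In Cov it was the most abundant of the 10 genes in every library, at 250.1 and 286 FPKM in DMSO, 148 and 150.3 at 50 nM and 138 and 141 at 250 nM. Groups did not overlap in either line, but in Cov the step from DMSO to 50 nM was large and the step from 50 nM to 250 nM small. The share left at 250 nM was 52.2% in Ku and 52.1% in Cov, with log2 fold changes of -0.89 ± 0.13 (SE; adjusted p = 0.000902) and -0.93 ± 0.09 (SE; adjusted p = 3.13e-05). The Ku call was lost when either DMSO library or either 250 nM library was left out (adjusted p up to 0.00705), and the Cov call held. At 50 nM the gene fell by 0.84 in Cov and differed by -0.55 ± 0.13 (SE; adjusted p = 0.0152), without a call, in Ku. Between the doses the log2 difference in Cov was -0.10, with a 95% interval of -0.31 to 0.12.

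MUC16, whose shed part is CA125, was low in Cov and hardly above the floor in Ku. In Cov it measured 5.20 and 6.22 FPKM in DMSO, 2.63 and 2.80 at 50 nM and 2.46 and 2.70 at 250 nM. The DMSO libraries lay above the other 4, and the 2 doses overlapped. It fell by 0.85 at 50 nM (adjusted p = 0.00027) and by 0.90 at 250 nM (adjusted p = 0.000133) on the log2 scale. The call at 50 nM was lost without DMSO replicate 2 (adjusted p = 0.00287), and that at 250 nM without DMSO replicate 2 or 250 nM replicate 1 (adjusted p up to 0.00146). In Ku it measured 0.172 and 0.159 FPKM in DMSO, 0.139 and 0.144 at 50 nM and 0.105 and 0.112 at 250 nM. These values are so near the floor, which itself fell with dose, that a fold means little.

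Of the lipid-anchored proteins, which include CD24, MSLN and FOLR1 lay above the median change of active genes at 250 nM on the spike-in scale, and CD24 below it. MSLN measured 69.0 and 68.3 FPKM in DMSO, 71.6 and 72.9 at 50 nM and 49.4 and 52.3 at 250 nM in Ku. The 50 nM libraries lay just above both DMSO libraries, and the 250 nM libraries lay below all others. In Cov it measured 103 and 110.4 FPKM in DMSO, 82.5 and 75.4 at 50 nM and 70.4 and 86.1 at 250 nM, with both doses below DMSO and overlapping each other. MSLN was called in no comparison of either line. Its log2 fold change at 250 nM was -0.43 ± 0.06 (SE; adjusted p = 0.0006) in Ku, which passed the p threshold and not the fold threshold, and -0.45 ± 0.11 (SE; adjusted p = 0.00694) in Cov, which passed neither. The 95% intervals were -0.57 to -0.28 in Ku and -0.72 to -0.17 in Cov, and 74.1% and 73.5% of the DMSO level were left.

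FOLR1 was low in both lines. It measured 2.11 and 1.69 FPKM in DMSO, 2.28 and 1.87 at 50 nM and 1.40 and 1.20 at 250 nM in Ku, where DMSO and 50 nM overlapped and 250 nM lay below both. In Cov it measured 4.50 and 4.29 FPKM in DMSO, 2.69 and 2.17 at 50 nM and 2.24 and 2.37 at 250 nM, where both doses lay below DMSO and overlapped each other. The Cov log2 fold changes of -0.66 ± 0.11 (SE; adjusted p = 0.000792) at 50 nM and -0.71 ± 0.11 (SE; adjusted p = 0.000436) at 250 nM were called. Both rest on single libraries: the call at 50 nM was lost with any library but 50 nM replicate 1 left out (adjusted p up to 0.00685), and that at 250 nM without any 1 of the DMSO and 250 nM libraries (adjusted p up to 0.00447). In Ku the change at 250 nM was -0.33 ± 0.13 (SE; adjusted p = 0.047), which was not called, and at 50 nM it was 0.09 (95% interval -0.23 to 0.40), a value that fell to -0.02 without DMSO replicate 2 and to -0.01 without 50 nM replicate 1. With 1 added to each FPKM, the fitted folds understate the changes of FOLR1, as they do for CLDN3. At 250 nM 68.5% of its DMSO mean was left in Ku and 52.5% in Cov.

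The secreted proteins came from the most abundant antigen transcripts in Ku. SLPI, an inhibitor of neutrophil elastase and related proteases, measured 3060.0 and 2835 FPKM in DMSO, 3183 and 3095 at 50 nM and 2679.5 and 2466 at 250 nM in Ku. WFDC2, or HE4, measured 502 and 446 FPKM in DMSO, 512 and 548 at 50 nM and 417 and 421 at 250 nM in Ku. For both genes the 50 nM libraries lay above both DMSO libraries and the 250 nM libraries below them. At 250 nM 87.3% of SLPI and 88.3% of WFDC2 were left, with log2 fold changes of -0.20 ± 0.09 (SE; adjusted p = 0.0837) and -0.18 ± 0.08 (SE; adjusted p = 0.073). Neither was called, and the 95% intervals were -0.42 to 0.03 for SLPI and -0.37 to 0.02 for WFDC2. At 50 nM the intervals were -0.13 to 0.32 for SLPI and -0.03 to 0.35 for WFDC2, which hold both 0 and small rises.

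In the Cov table, normalized apart from that of Ku, the same genes had lower FPKM, and they were called lower at 250 nM. SLPI measured 128 and 147 FPKM in DMSO, 94.1 and 101 at 50 nM and 92.5 and 95.5 at 250 nM. WFDC2 measured 165 and 171 FPKM in DMSO, 104 and 107 at 50 nM and 106 and 100.2 at 250 nM. For both, DMSO lay above both doses and the doses overlapped. The WFDC2 log2 fold change was -0.66 ± 0.08 (SE; adjusted p = 0.000151) at 50 nM and -0.70 ± 0.08 (SE; adjusted p = 6.47e-05) at 250 nM, and both were called, the first of them not without DMSO replicate 2 or 50 nM replicate 1 (adjusted p up to 0.00135). SLPI was called at 250 nM, at -0.54 ± 0.09 (SE; adjusted p = 0.000862), and not at 50 nM, at -0.49 ± 0.09 (SE; adjusted p = 0.00168). Its call was lost with any library but DMSO replicate 1 left out (adjusted p up to 0.00602). Between the doses WFDC2 differed by -0.04 (95% interval -0.22 to 0.14) and SLPI by -0.05 (95% interval -0.27 to 0.17). The difference between the lines was not tested.

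**Figure D2:**
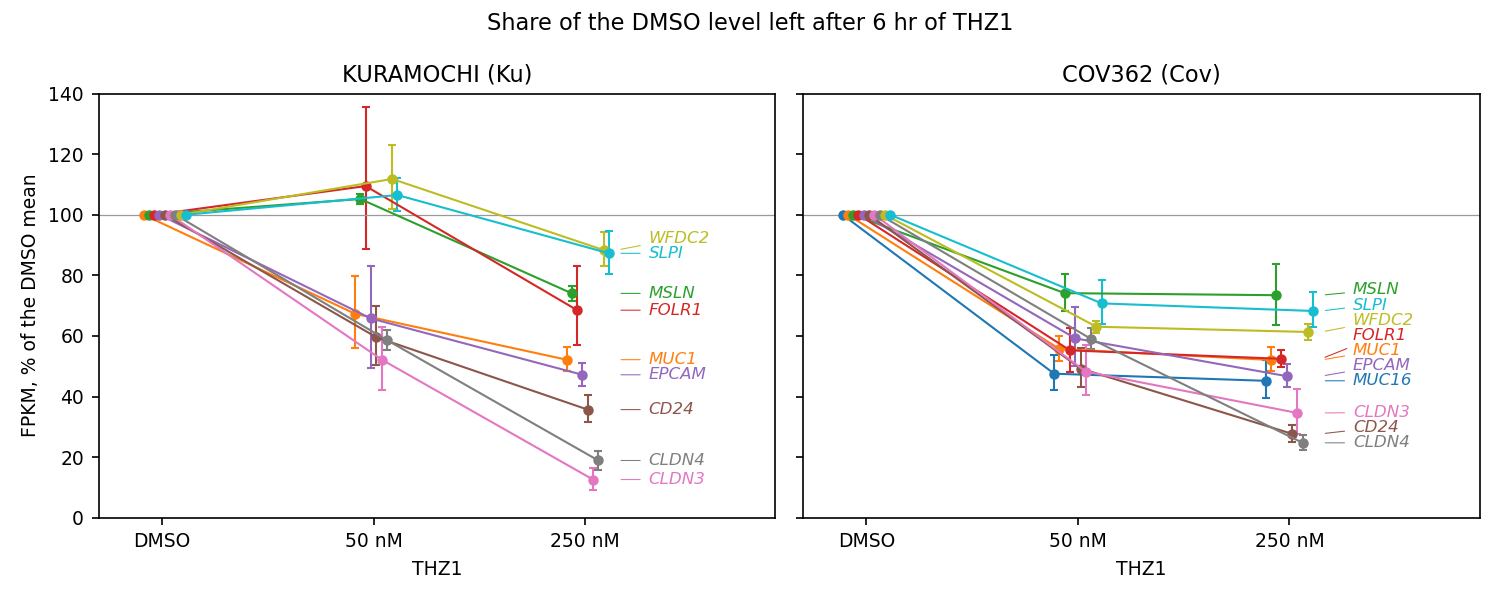
Mean FPKM at each dose as a percent of the DMSO mean of the same line, with bars for the lowest and highest of the 4 ratios of a treated to a DMSO library; MUC16 in Ku is left out because it was near the floor. In Ku at 250 nM the genes spread from 12.6% for CLDN3 to 88.3% for WFDC2, and in Cov from 24.8% for CLDN4 to 73.5% for MSLN.

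The step from 50 nM to 250 nM was described in the same manner, with no test between the lines. In Ku the 250 nM libraries lay below both 50 nM libraries for 10 of the 10 genes, MUC16 near its floor included, as they did for 87.7% of active genes. In Cov they did so for 5, against 75.6% of active genes, namely MUC1, CLDN3, CLDN4, EPCAM and CD24, and the doses overlapped for the other 5, namely MUC16, WFDC2, MSLN, FOLR1 and SLPI. The median log2 difference of the antigen genes between 250 nM and 50 nM was -0.38 in Ku, where that of all active genes was -0.62, and -0.08 in Cov, where it was -0.41. These comparisons share the 50 nM libraries with those against DMSO. The calls between doses were 1 of 10 lower in Ku, against 36% of active genes, and 2 of 10 in Cov, against 24.4%. With equal medians, 0 were called lower in Cov between doses and 3 higher (MUC1, WFDC2 and SLPI), beside 5.27% and 3.42% of active genes. With median-of-ratios scaling they were 0 and 2 (WFDC2 and SLPI), beside 8.26% and 0.519%. For MSLN in Cov, whose log2 difference between doses was -0.02, the 95% interval was -0.29 to 0.25, and without 50 nM replicate 1 or 250 nM replicate 1 the difference was 0.05 or 0.12.

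**Figure D3:**
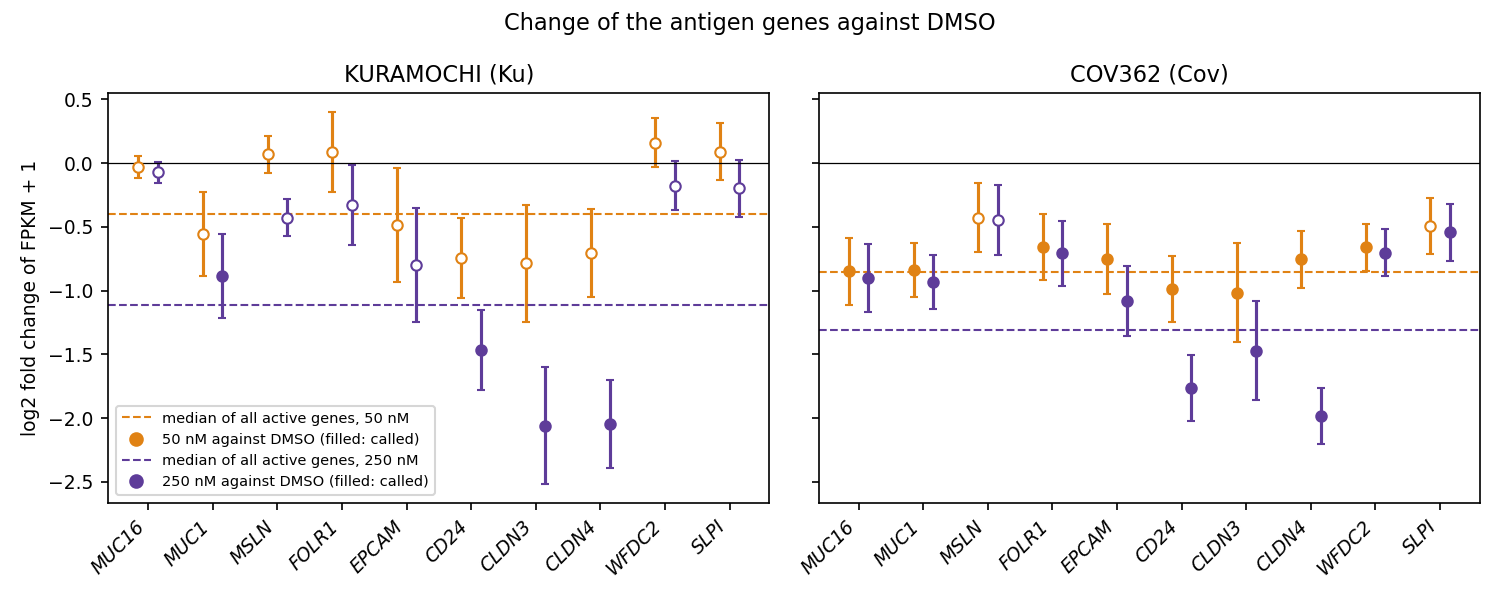
Log2 fold change of FPKM + 1 against DMSO with 95% intervals from limma, at 50 nM and 250 nM, filled where called, with dashed lines at the median of all active genes for each dose. The claudins and CD24 lie below the 250 nM line in both cell lines on this spike-in scale, with CD24 in Ku and CLDN3 in Cov changing sides on other scales, while MSLN, FOLR1, WFDC2 and SLPI lie above it.

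Order and mixture shifted with these unequal losses. In DMSO the order of levels in Ku was SLPI, WFDC2, CD24, MSLN, MUC1, CLDN4, CLDN3, EPCAM, FOLR1 and MUC16 in both libraries, and the groups of 2 did not overlap between neighbours. At 250 nM MSLN had passed CD24, and CLDN3 had dropped from place 7 to place 9, below EPCAM and FOLR1. In Cov DMSO the order was MUC1, then WFDC2 and EPCAM, whose libraries overlapped, then SLPI and CLDN4, which also overlapped, then MSLN, CD24, CLDN3, MUC16 and FOLR1. At 250 nM CLDN4 stood below MSLN in both Cov libraries, and SLPI above EPCAM. SLPI alone made up 80.4% and 80.9% of the summed FPKM of the 10 genes in the Ku DMSO libraries, and 83.5% and 82.3% at 250 nM.

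A ratio of a pair of genes within a library does not change when the library is divided by 1 number, as in the equal median and median-of-ratios scalings described below. Whether the authors' spike-in scaling used 1 number per library is not known here, and the ratios could depend on it. In Ku the FPKM of SLPI was 213 and 206 times that of CLDN4 in DMSO, 373 and 389 times at 50 nM and 882 and 1081 times at 250 nM. In Cov the same ratio was 1.02 and 1.08, then 1.19 and 1.33, then 3.05 and 2.77. The groups did not overlap in either line, and the ratio was higher at each higher dose. Against its neighbour CLDN3, CLDN4 moved less clearly. The ratio of CLDN4 to CLDN3 was 2.26 and 2.02 in Ku DMSO libraries and 4.94 and 2.18 at 250 nM, which overlap. In Cov it was 3.81 and 3.63 in DMSO, 4.20 and 4.96 at 50 nM and 2.92 and 2.46 at 250 nM, so that 50 nM lay above DMSO and 250 nM below it. The ratio of SLPI to WFDC2, the pair on chromosome 20, was 6.09 and 6.36 in Ku DMSO libraries and 6.43 and 5.86 at 250 nM, and the groups overlapped. In Cov it was 0.780 and 0.861 in DMSO, 0.901 and 0.941 at 50 nM and 0.876 and 0.953 at 250 nM, so that both doses lay above DMSO and overlapped each other.

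For most of these genes, whether a level fell rests on the spike-in scale. When each library was instead rescaled so that active genes had an equal median FPKM in all libraries, the median change of active genes at 250 nM went from -1.11 to 0.34 in Ku and from -1.31 to 0.38 in Cov, and with median-of-ratios scaling it was -0.00106 and 0.0127. On the first of these scales 11.8% of active genes were called lower and 27.5% higher in Ku at 250 nM, and 11.4% and 26.7% in Cov. On the second they were 19.3% and 11.4% in Ku and 18.9% and 8.73% in Cov. No antigen gene was then called lower at 250 nM. In Ku the log2 fold changes of CLDN3 (-0.86 and -1.23) and CLDN4 (-0.40 and -0.87) stayed negative on the first and second of these scales. On the second, so did CD24 in Ku (-0.03) and CLDN4 (-0.40) and CD24 (-0.23) in Cov. With equal medians, 5 of the 10 were called higher in Ku (MUC1, WFDC2, MSLN, FOLR1, SLPI) and 6 in Cov (MUC16, MUC1, WFDC2, MSLN, EPCAM, SLPI), and with median-of-ratios scaling 3 in Ku (WFDC2, MSLN, SLPI) and 4 in Cov (MUC1, WFDC2, MSLN, SLPI).

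Relative to the median active gene, the sides were steadier, which follows largely from the method. Each rescaling divided a library by 1 number, so these distances differ between scales only through the 1 added to each FPKM. Agreement across the scales is therefore no separate support. At 250 nM MSLN, FOLR1, EPCAM, MUC1, WFDC2 and SLPI lay above the median on all 3 scales in both lines, and MUC16 did so in Cov. CLDN4 lay below the median on all 3 in both lines, although with equal medians its own change in Cov was 0.0593. For CLDN4 the log2 distance from the median was -0.94, -0.74 and -0.87 in Ku and -0.68, -0.32 and -0.41 in Cov, on the spike-in, equal median and median-of-ratios scales in that order. For SLPI it was 0.91, 1.44 and 1.26 in Ku and 0.76, 1.14 and 1.05 in Cov. CLDN3 was below the median on all 3 scales in Ku, at -0.95, -1.20 and -1.23, but changed sides in Cov, at -0.16, 0.14 and 0.06. CD24 was below it on all 3 in Cov, at -0.46, -0.16 and -0.24, but changed sides in Ku, at -0.36, 0.15 and -0.03. These distances are descriptions with no test of their own.

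**Figure D4:**
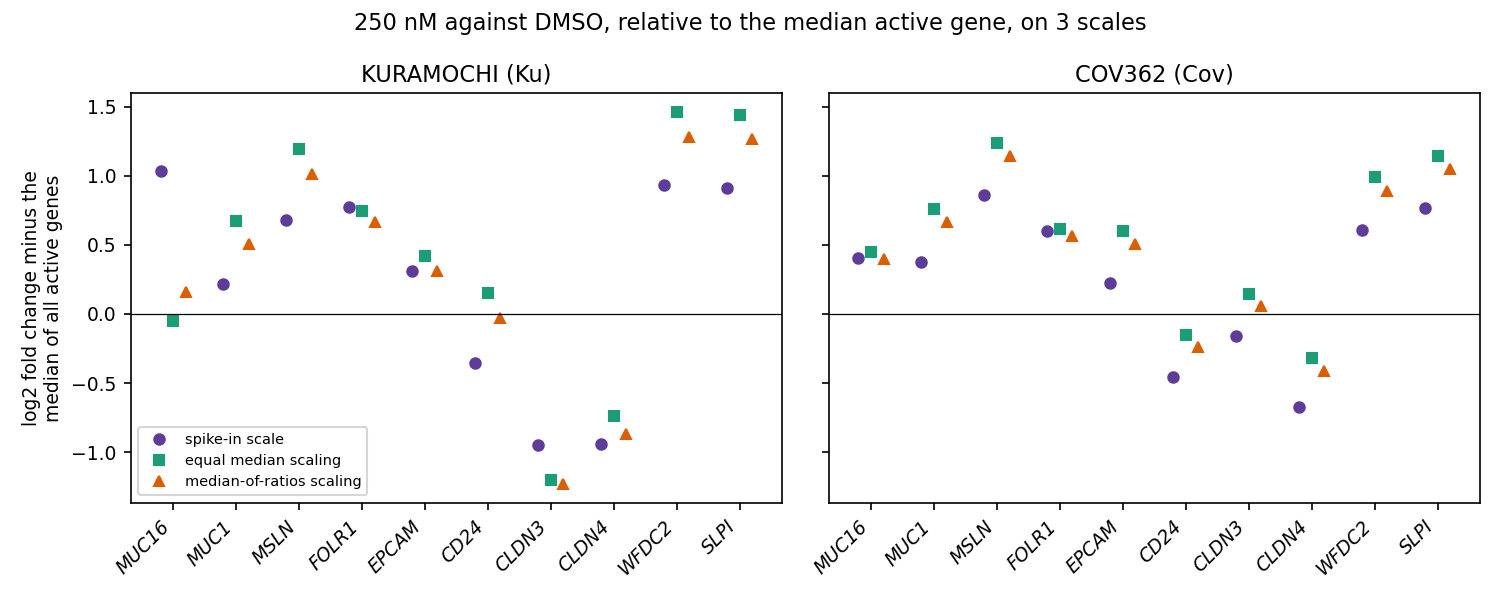
Log2 fold change at 250 nM of each antigen gene minus the median over all active genes, on the spike-in scale, with equal medians and with median-of-ratios scaling. CLDN4 stays below 0 and MSLN, FOLR1, EPCAM, MUC1, WFDC2 and SLPI stay above 0 on all 3 scales in both lines, while CD24 in Ku, CLDN3 in Cov and MUC16 in Ku, which is near the floor, lie on both sides.

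Other genes of the same families and routes fell in part and none was called higher, on the spike-in scale. Of 14 active tight junction genes other than CLDN3 and CLDN4, 10 were called lower in Ku, against 68.6% of active genes, and 13 in Cov, against 84%, at 250 nM, with median log2 fold changes of -1.29 and -1.53, beside -1.11 and -1.31 over all active genes. An active gene can owe its place to the other line and have no level from which to fall, so counts are also given for genes with a mean above 1 FPKM over the 6 libraries of the line. By that measure 10 of 10 tight junction genes in Ku and 13 of 13 in Cov were called lower, beside 77.1% and 91.5% of all genes of such a mean, whose median changes were -1.27 and -1.42. CLDN1, the claudin of epithelial barriers, changed by -1.42 in Ku and -2.17 in Cov, and CLDN16, a claudin of kidney magnesium transport, by -1.53 in Ku and -1.58 in Cov. These 4 changes were called. CLDN1 kept 36.8% of its DMSO level in Ku and 21.8% in Cov, which is more than CLDN4 kept in Ku and less than CLDN4 kept in Cov. On the equal median and median-of-ratios scales the list's medians were 0.19 and -0.07 in Ku, with 0 called lower on either and 1 and 0 higher, and 0.04 and -0.39 in Cov, with 1 and 4 called lower and 2 and 0 higher. The shares of active genes called lower on these scales were 11.8% and 19.3% in Ku and 11.4% and 18.9% in Cov, and those called higher 27.5% and 11.4% in Ku and 26.7% and 8.73% in Cov.

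Of 16 other active surface antigens, 10 in Ku and 13 in Cov were called lower at 250 nM, near the 68.6% and 84% of active genes, with medians of -0.91 and -1.04. Over genes with a mean above 1 FPKM in the line, they were 10 of 12 in Ku and 12 of 14 in Cov, with medians of -1.01 and -1.19. Of all genes of such a mean, 77.1% in Ku and 91.5% in Cov were called lower, with medians of -1.27 and -1.42. BCAM, a laminin receptor, measured 712 and 723 FPKM in Ku DMSO libraries and 420.1 and 442 at 250 nM, and its change of -0.73 in Ku and -0.58 in Cov was called in Ku and, at adjusted p = 0.00137, not in Cov. The cadherin CDH6 fell by 1.86 in Ku and 2.54 in Cov. LYPD1, a lipid-anchored protein like MSLN and FOLR1, fell by 2.51 and 1.66, where MSLN and FOLR1 changed by -0.43 and -0.33 in Ku and -0.45 and -0.71 in Cov. The folds of FOLR1 are understated by the 1 added to its low FPKM. With equal medians 1 of the 16 was called lower and 8 higher in Ku (11.8% and 27.5% of active genes), and 2 and 6 in Cov (11.4% and 26.7%). With median-of-ratios scaling 2 were called lower and 2 higher in Ku (19.3% and 11.4%), and 2 and 4 in Cov (18.9% and 8.73%).

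Of 19 other active secreted markers, 7 in Ku and 13 in Cov were called lower at 250 nM, against the same 68.6% and 84%, with medians of -0.48 and -0.76. Several kallikrein genes of the list were at or near the floor in Cov. Over genes with a mean above 1 FPKM in the line, 7 of 16 in Ku, beside 77.1%, and 13 of 14 in Cov, beside 91.5%, were called lower, with medians of -0.51 and -0.85. SPP1, or osteopontin, changed by -0.37 ± 0.10 (SE; adjusted p = 0.0106) in Ku, without a call, and fell by 0.82 in Cov. IGFBP2, which binds insulin-like growth factors, fell by 0.62 and 0.67. MMP7, a secreted protease, was near 1 FPKM in Ku and had 873 and 962 FPKM in Cov DMSO libraries, where it fell by 1.97. At neither dose, in neither line, did a gene of these 3 lists pass as higher, and at an unadjusted p under 0.05 only 1 was higher, the secreted marker KLK8 in Cov at 50 nM, by 0.21 on the log2 scale at levels under 1 FPKM in the 6 libraries. With equal medians, 12 of the 19 secreted markers in Ku and 9 in Cov were called higher at 250 nM, beside 27.5% and 26.7% of active genes, and 0 lower, beside 11.8% and 11.4%. With median-of-ratios scaling 9 in Ku and 7 in Cov were called higher, beside 11.4% and 8.73%, and 0 and 1 lower, beside 19.3% and 18.9%.

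The WAP genes beside SLPI and WFDC2 were mostly silent: 3 of 16 others in the cluster list were active, and 1 in Ku and 0 in Cov were called lower at 250 nM, beside 68.6% and 84% of active genes, while 1 in Ku and 2 in Cov were lower at an unadjusted p under 0.05. PI3, or elafin, a protease inhibitor like SLPI, measured 241 and 218 FPKM in DMSO, 275 and 235 at 50 nM and 225 and 210.3 at 250 nM in Ku, where the groups overlapped, and 16.1 and 13.9 FPKM in Cov DMSO libraries against 8.13 and 5.06 at 250 nM, where they did not. WFDC11 was active in Ku, at 37.2 and 37.1 FPKM in DMSO, and fell by 1.14, and WFDC3 did not exceed 1 FPKM in Ku and was called in neither line.

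Of 6 other active genes of folate uptake and use, 4 in Ku and 6 in Cov were called lower at 250 nM, beside 68.6% and 84% of active genes. FPGS, which adds glutamates to folate, fell by 1.27 and 1.09, and GGH, which removes them, changed by -0.46 in Ku and -1.08 in Cov, called in Cov. Of 18 genes that shed or glycosylate mucins, 13 in Ku and 17 in Cov were called lower, beside the same shares of active genes, with medians of -0.84 and -1.28. Over those with a mean above 1 FPKM in the line, 11 of 16 in Ku and 17 of 17 in Cov were called lower, beside 77.1% and 91.5% of all genes of such a mean. The gamma-secretase subunits APH1A (-1.16 in Ku and -1.10 in Cov) and NCSTN (-0.46 in Ku and -1.03 in Cov, called in Cov) and GALNT2 (-0.71 in Ku and -1.27 in Cov), which starts O-linked sugar chains, are the most abundant of these. No gene of these 3 lists was called higher, or higher at an unadjusted p under 0.05, in any of the 6 comparisons on the spike-in scale. At 250 nM with equal medians, 1 of the 6 folate genes was called lower and 2 higher in Ku, and 0 and 2 in Cov. With median-of-ratios scaling they were 2 and 2 in Ku and 0 and 0 in Cov. Of the 3 active WAP genes, 1 was called higher in Ku and 0 in Cov on each of these scales, and 0 lower. The shares of active genes are those beside the counts that follow. With equal medians 8 of the 18 mucin-processing genes in Ku and 7 in Cov were called higher at 250 nM, beside 27.5% and 26.7% of active genes, and 1 and 2 lower, beside 11.8% and 11.4%. With median-of-ratios scaling 5 in Ku and 1 in Cov were called higher, beside 11.4% and 8.73%, and 1 and 3 lower, beside 19.3% and 18.9%.

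For each antigen gene active in both lines, the genes with the most similar course over the 12 libraries were found by the root mean square difference of log2(FPKM + 1) after the DMSO mean of the line was subtracted. This is a description over libraries that share doses and scale. The nearest to MUC1 were B4GALNT1 (0.0373) and C11orf73 (0.0391), and to CD24 SLC15A4 (0.0612) and ARMCX3 (0.0633). For CLDN4 they were GZF1 (0.112) and MARCKS (0.112), and for CLDN3 REPIN1 (0.124) and ZNF598 (0.129). SLPI was nearest to RPL37 (0.0568) and ATP5I (0.0572), of which RPL37 encodes a ribosomal protein and ATP5I a subunit of the mitochondrial ATP synthase. MSLN was nearest to MDK (0.0534) and BAI2 (0.0565), WFDC2 to BACE2 (0.0689) and GPX3 (0.0743), FOLR1 to PIGT (0.0700) and BLOC1S1 (0.0805) and EPCAM to TCTEX1D2 (0.0786) and BECN1 (0.0928). No antigen gene was among the 2 nearest to another.

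The antigen genes also shared features of their transcripts that their choice did not use. Among the 9 with an annotated transcript, the 3′ untranslated region was between 88 and 859 bases long and shorter in 9 of 9 than the median of 1323 bases over 12002 matched active genes, which are 84.2% of the active genes. The motif ATTTA, found in many transcripts of short life, was present there in CLDN4 and EPCAM, in 2 copies each, which is 2 of 9 against 73.2% of matched active genes. A shorter region has fewer chances to hold a motif. The gene body was shorter than the median of 33379.5 bases for 7 of 9, with CLDN3 the shortest at 1274 bases in a single exon and MUC16 the longest at 161547 bases. CD24 is left out of these counts.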

How the data were processed

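RNA was sequenced from 12 libraries of 2 ovarian cancer cell lines, 2 libraries per line and treatment. Per the labels and the study's methods, the authors added ERCC spike-in RNAs to RNA normalized by cell count, made stranded poly(A) libraries, and aligned single-end reads against hg19 by HISAT. The deposited values are FPKM made by the authors with Cufflinks and Cuffnorm and scaled by the spike-ins, each line in its own file. These FPKM are not counts, so depth is unknown and a count test was not possible. Such a scale keeps shared falls per cell, and any error in the spike-in amount would shift all genes of a library alike.

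Here, libraries were grouped by their labels, and log2(FPKM + 1) of the 14251 active genes was fitted in each line with limma 3.58.1 in R 4.3.3 (eBayes with a mean-variance trend, 3 groups of 2), with two-sided tests and Benjamini-Hochberg adjustment over all active genes. An exact permutation test of 1 gene in 2 against 2 libraries cannot go below p = 0.333, so none was run. The 10 genes and the lists were chosen with earlier results of these data known. Genes named beside them were the 3 most abundant active genes of each list in DMSO, any list gene called higher (there was none), and the 2 genes closest in course to each antigen gene; KLK8 was named after its value was seen, and some genes under this rule are not reported here. Alternatives were a pseudocount of 0.1, minimum FPKM of 10, none, or on condition means, scaling to equal medians or by median of ratios, only the groups compared, a replicate block, no trend, a p threshold of 0.05, a fold threshold of 1 in log2 units, and each library left out. Tables and figures were made with version 1.17.8 of data.table, pandas 2.3.3 and matplotlib 3.10.9 in Python 3.11.15.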

Additional observations from a re-analysis of the deposited data

Results flagged for a closer look

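At 50 nM, on the spike-in scale, the libraries of 3 genes lay on opposite sides of DMSO in the 2 lines, with both treated libraries above both DMSO libraries in Ku and below them in Cov, a pattern held by 2.65% of active genes. For WFDC2 the log2 fold change was 0.16 in Ku and -0.66 in Cov. For MSLN it was 0.072 in Ku and -0.43 in Cov. For SLPI it was 0.092 in Ku and -0.49 in Cov. Of these 6 values, that of WFDC2 in Cov was called. The opposite directions hold on that scale alone: with equal medians and with median-of-ratios scaling the Cov values were 0.56 and 0.36 for WFDC2, 0.79 and 0.59 for MSLN and 0.72 and 0.53 for SLPI, all positive as in Ku. The difference between the lines was not tested, because each line has its own normalized table. At 250 nM, on the spike-in scale, both treated libraries lay below both DMSO libraries for the 3 genes in both lines, as for 95.9% of active genes in Ku and 95.6% in Cov.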

How the results depend on the processing

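Of 1008 fold changes of the antigen genes recomputed under alternatives, 814 kept their direction and side of the threshold, 12 gained a call, 89 lost one and 93 changed sign, 48 of these with equal medians, 40 with median-of-ratios scaling and 5 with a library left out. The cause of these changes was not tested, except that each scaling by construction removes a shared fall.

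With equal medians the log2 fold changes that turned positive were, for Ku 50 nM against DMSO, MUC16 (0.0788), MUC1 (0.12) and EPCAM (0.0548). For Ku 250 nM against DMSO, they were MUC16 (0.29), MUC1 (1.02), WFDC2 (1.80), MSLN (1.54), FOLR1 (1.09), EPCAM (0.76), CD24 (0.49) and SLPI (1.79). For Ku 250 nM against 50 nM, they were MUC16 (0.21), MUC1 (0.90), WFDC2 (0.94), MSLN (0.76), FOLR1 (0.49), EPCAM (0.71), CD24 (0.54) and SLPI (0.99). For Cov 50 nM against DMSO, they were MUC16 (0.13), MUC1 (0.38), WFDC2 (0.56), MSLN (0.79), FOLR1 (0.30), CLDN3 (0.16), CLDN4 (0.46), EPCAM (0.46), CD24 (0.20) and SLPI (0.72). For Cov 250 nM against DMSO, they were MUC16 (0.83), MUC1 (1.14), WFDC2 (1.37), MSLN (1.62), FOLR1 (0.99), CLDN3 (0.52), CLDN4 (0.0593), EPCAM (0.98), CD24 (0.22) and SLPI (1.52). For Cov 250 nM against 50 nM, they were MUC16 (0.69), MUC1 (0.75), WFDC2 (0.81), MSLN (0.83), FOLR1 (0.69), CLDN3 (0.36), EPCAM (0.51), CD24 (0.0243) and SLPI (0.80). MUC16 was near the floor in Ku, so its Ku values listed here mean little.

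With median-of-ratios scaling the log2 fold changes that turned positive were, for Ku 50 nM against DMSO, MUC16 (0.0522). For Ku 250 nM against DMSO, they were MUC16 (0.16), MUC1 (0.50), WFDC2 (1.28), MSLN (1.01), FOLR1 (0.66), EPCAM (0.31) and SLPI (1.26). For Ku 250 nM against 50 nM, they were MUC16 (0.10), MUC1 (0.53), WFDC2 (0.56), MSLN (0.39), FOLR1 (0.17), EPCAM (0.37), CD24 (0.16) and SLPI (0.61). For Cov 50 nM against DMSO, they were MUC1 (0.19), WFDC2 (0.36), MSLN (0.59), FOLR1 (0.14), CLDN4 (0.27), EPCAM (0.27), CD24 (0.00753) and SLPI (0.53). For Cov 250 nM against DMSO, they were MUC16 (0.41), MUC1 (0.68), WFDC2 (0.91), MSLN (1.16), FOLR1 (0.58), CLDN3 (0.0696), EPCAM (0.52) and SLPI (1.06). For Cov 250 nM against 50 nM, they were MUC16 (0.44), MUC1 (0.49), WFDC2 (0.54), MSLN (0.56), FOLR1 (0.44), CLDN3 (0.095), EPCAM (0.25) and SLPI (0.53). The Ku values of MUC16 listed here, near the floor, mean little.

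With a library left out, FOLR1 in Ku at 50 nM turned to -0.0177 without DMSO replicate 2 and to -0.0103 without 50 nM replicate 1 (range -0.0177 to 0.19 over the 6 libraries). In Cov between 250 nM and 50 nM, MSLN turned to 0.0455 without 50 nM replicate 1 and to 0.12 without 250 nM replicate 1 (range -0.16 to 0.12), and FOLR1 to 0.0602 without 50 nM replicate 1 (range -0.16 to 0.0602). The number of the 10 antigen genes called lower was 0 under both scalings in Ku and in Cov at each dose and between doses. In Ku at 50 nM it was 0, 4 at an adjusted p under 0.05, and 0 to 0 with a library left out. In Ku at 250 nM it was 4, and 3 to 4 with a library left out. In Ku between doses it was 1, 3 with a pseudocount of 0.1, 2 with a minimum FPKM of 10, 0 with no minimum, 3 at an adjusted p under 0.05, and 0 to 1 with a library left out. In Cov at 50 nM it was 8, 4 with no minimum, 1 at a log2 fold change beyond 1, and 1 to 7 with a library left out. In Cov at 250 nM it was 9, 4 at a log2 fold change beyond 1, and 6 to 8 with a library left out. In Cov between doses it was 2, 1 with no minimum, 1 in a fit of the 2 groups alone, 1 without the trend, 1 at a log2 fold change beyond 1, and 1 to 2 with a library left out. In a fit with a library left out, the lone library of its group is assumed to vary like the others. With the replicate block the counts were 1 in Ku at 50 nM, 2 in Ku between doses, 5 in Cov at 50 nM and 1 in Cov between doses. Deviations of same-numbered libraries from their group means correlated between -0.0703 and 0.0282 over active genes, so the libraries share only a number. A minimum on condition means changed no call. Read depth is unknown, and values near the floor limit what can be read for MUC16 in Ku.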
